A study of Homo sapiens with 8 samples.

Results

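The genes of TGF-β, activin and BMP signalling were examined in RNA-seq of Caco-2 cells, an established line from a human colorectal adenocarcinoma. The set was chosen by name and holds 43 genes of the 63816 gene entries in the deposited table: 10 ligands, 5 type I receptors, 4 type II receptors, 1 co-receptor, 4 latent TGF-β binding proteins, 3 secreted antagonists, 5 receptor-regulated SMADs, the common SMAD, 2 inhibitory SMADs, 2 ubiquitin ligases, 2 co-repressors and 4 ID proteins. All 43 were in the table. The cells had been transfected with pcDNA3.1, a plasmid that drives its insert from a viral promoter, either empty or carrying full-length SIGLEC12, the gene for Siglec-XII. The methods of the study call the SIGLEC12 plasmid linearized and leave unclear whether the empty one was. Both were introduced with a lipid reagent and kept under G418 selection, so the control cells also carry the vector and its resistance gene. There were 4 empty vector samples and 4 Siglec-XII samples. The series description speaks of stable clones and of 3 cultures per condition, and the methods of the study speak of technical replicate libraries, so the p-values measure only the spread between these samples, which may be technical. Since the 2 kinds of cells were transfected and selected separately, an effect of Siglec-XII and a difference between the selected populations cannot be told apart.

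Ligands of the TGF-β family bind pairs of type II and type I receptor kinases, and the type I kinase phosphorylates receptor-regulated SMADs: SMAD2 and SMAD3 for TGF-β and activin, SMAD1, SMAD5 and SMAD9 for BMP. These enter the nucleus with SMAD4 and act on target genes, among them SMAD6, SMAD7 and the ID genes, and SMAD7 in turn blocks the receptors. In colon epithelium BMP signals accompany differentiation along the crypt, TGF-β restrains growth, and TGFBR2 and SMAD4 are often lost in colorectal cancer.

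Promoter sequences are shown for 2 inhibitors that stood higher with Siglec-XII, SMAD7 and BAMBI, for SMAD6, and for ID1, a standard BMP target. They are the 250 bases before the start of a RefSeq transcript of the gene (GRCh38.p14), 5′ to 3′ on its strand. Capitals mark 3 motifs searched on both strands: GTCTAGAC, the palindromic SMAD-binding element, GGCGCC, a palindrome of the GC-rich kind bound by SMAD1 and SMAD5, and CAGAC with its reverse complement GTCTG, the SMAD box. No match of one motif can lie inside a match of another. The windows are chr18:48950966-48951215 on the minus strand for SMAD7, chr15:66701986-66702235 on the plus strand for SMAD6, chr10:28677271-28677520 on the plus strand for BAMBI and chr20:31605039-31605288 on the plus strand for ID1.
SMAD7: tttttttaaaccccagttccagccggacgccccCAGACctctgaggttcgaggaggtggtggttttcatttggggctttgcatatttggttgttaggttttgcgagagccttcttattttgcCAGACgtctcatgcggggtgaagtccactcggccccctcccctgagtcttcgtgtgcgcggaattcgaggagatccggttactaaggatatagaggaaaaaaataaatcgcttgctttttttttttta
SMAD6: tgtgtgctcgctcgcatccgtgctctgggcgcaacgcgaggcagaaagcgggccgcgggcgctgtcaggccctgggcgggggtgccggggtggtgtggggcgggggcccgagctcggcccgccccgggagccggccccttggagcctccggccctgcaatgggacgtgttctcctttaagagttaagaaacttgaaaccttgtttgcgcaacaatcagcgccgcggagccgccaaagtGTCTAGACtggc
BAMBI: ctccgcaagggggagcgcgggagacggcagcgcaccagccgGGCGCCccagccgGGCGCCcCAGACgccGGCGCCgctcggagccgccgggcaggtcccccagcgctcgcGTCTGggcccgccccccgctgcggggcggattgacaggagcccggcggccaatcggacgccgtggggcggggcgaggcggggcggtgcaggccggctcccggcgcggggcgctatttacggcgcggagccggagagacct
ID1: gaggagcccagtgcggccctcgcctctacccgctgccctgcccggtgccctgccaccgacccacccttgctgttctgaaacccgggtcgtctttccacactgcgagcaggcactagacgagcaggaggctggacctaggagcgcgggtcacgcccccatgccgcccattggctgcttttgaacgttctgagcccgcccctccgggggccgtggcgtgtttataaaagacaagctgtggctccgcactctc

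The SMAD7 window shown held 2 SMAD boxes, beginning 217 and 128 bases before the start. Of the other SMAD7 windows, chr18:48949334-48949583 held 1 and chr18:48942808-48943057 held 0. SMAD6 was the only matched member with the palindromic element, which began 12 bases before the start. The BAMBI window held 3 GGCGCC and 2 SMAD boxes, and the ID1 window held none of the 3 motifs. Of the 43 members 39 were matched to the RefSeq promoter windows used here, 71 in all, and NOG, SKI, BMP7 and BMP2 were not analysed here. GTCTAGAC was in 1.41% of the member windows and 0.182% of all 35116 windows of this length, GGCGCC in 22.5% and 16.4%, and the SMAD box in 39.4% and 38.0%. A match is only a run of letters, and its absence says nothing of a factor's binding.

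The transfected gene was read first. SIGLEC12 (minus strand of chromosome 19, 51994481 to 52005054 in GRCh37) stood at 0.0795 ± 0.0342 TPM (SD, n = 4) with the empty vector and 1667 ± 71.3 TPM with Siglec-XII, with every Siglec-XII sample above every control (exact permutation test, two-sided, p = 0.0286, which is the lowest possible with 4 samples in each group). TPM, transcripts per 1000000, is a level corrected for transcript length. Reads behind a value are unknown, since the table holds log2(TPM + 1) alone. Mitochondrially encoded genes took 6.67% to 11.2% of the TPM, most in empty vector replicate 1. Markers of the labelled colon origin were mostly absent or near 0. All 5 general epithelial markers were abundant, but of 12 colon epithelium markers only CDX1 (128 to 165 TPM) and CDX2 (34.0 to 48.8 TPM) passed the filter, and FABP1, KRT20 and TFF3 were listed at 0 in all samples, with VIL1 at 0.308 to 1.3 TPM, CDH17 at 0 to 0.333 TPM and HNF4A at 0.0373 to 0.174 TPM. Of 13 trophoblast markers 10 passed, with GATA3 at 331 to 479 TPM, HSD3B1 at 316 to 370 TPM and TFAP2C at 152 to 173 TPM. GATA2 at 121 to 152 TPM, TP63 at 29.5 to 39.5 TPM and TFAP2A at 29.5 to 36.7 TPM passed as well. The rest that passed were low, with CGA at 0.127 to 1.35 TPM and ERVW-1 at 1.08 to 1.59 TPM. ERVFRD-1 stood at 0.546 to 2.48 TPM and CYP19A1 at 2.28 to 7.29 TPM, while CGB3, CGB5 and ELF5 were near 0. Of 8 fibroblast markers 5 passed, led by COL1A1 at 41.9 to 59.1 TPM, with THY1 at 0. Of 4 endothelial markers only CDH5 passed, and of 5 leukocyte markers only CD68 and CD14, with PTPRC near 0. The levels of most colon markers and of the abundant trophoblast markers go against the labelled colon line in all 8 samples. Its identity was not tested.

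BMP ligands dominated the set. BMP7 was the most abundant member, at 243 ± 11.7 TPM (SD, n = 4) with the empty vector and 264 ± 20.6 TPM with Siglec-XII, and BMP4 followed at 161 ± 10.03 and 176 ± 3.49 TPM. Together with the other 8 ligands they summed to 428 ± 19.4 and 467 ± 22.4 TPM, of which BMP7 made 56.8% and 56.5% and BMP4 37.5% and 37.8%. TGFB1, TGFB2 and TGFB3 summed to only 12.4 ± 1.73 and 12.8 ± 0.751 TPM, of which TGFB1 made 83.7% ± 3.77 and 81.1% ± 1.76. The activin subunits INHBA and INHBB and the ligand NODAL stayed under 1 TPM in every sample.

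**Figure D1:**
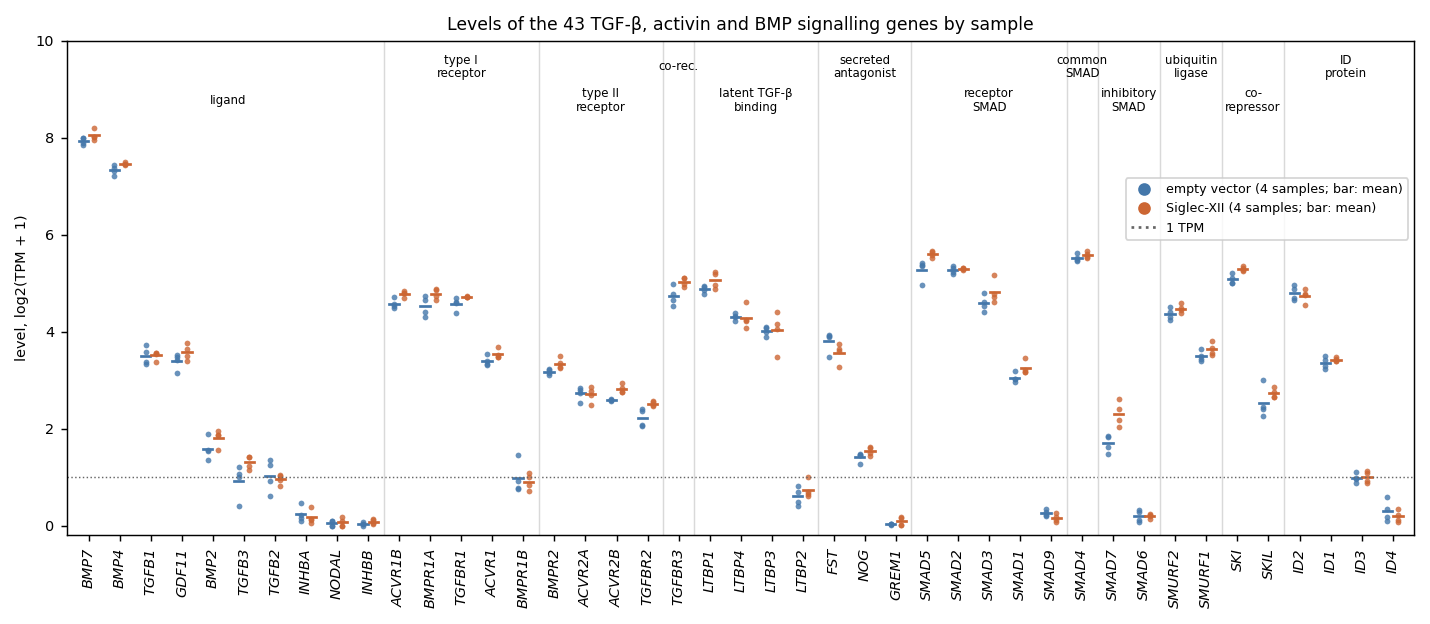
Level of each of the 43 genes in every sample, as log2(TPM + 1), ordered by role along the x axis. Points are samples, short bars group means (4 samples each) and the dotted line 1 TPM. BMP7 and BMP4 stand apart at the top and 10 genes have a mean under 1 TPM.

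By their mean over all samples, 2 members stood at 50 TPM or more, 19 at 10 to under 50 TPM, 12 at 1 to under 10 TPM and 10 under 1 TPM. After BMP7 and BMP4 came SMAD4 (45.9 TPM), SMAD5 (42.9), SMAD2 (38.0), SKI (35.7), LTBP1 (30.5), TGFBR3 (28.8), ID2 (26.4) and SMAD3 (25.4). Among 42 neighbouring pairs in this order only 3 did not overlap over the 8 samples: BMP7 and BMP4, BMP4 and SMAD4, and SMAD1 (7.91 TPM) and ACVR2A (5.60 TPM). The ranges of every other pair of neighbours overlapped. SMURF1, ID3 and GREM1 each stood on 2 entries with identical values, so their levels per entry, such as 10.9 TPM for SMURF1, may be part of the gene's level (21.7 TPM when summed).

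Within families 1 gene often carried most of the RNA. SMAD5 made 83.4% ± 2.34 (SD, n = 4) of the summed BMP SMADs in the controls and 84.7% ± 1.68 with Siglec-XII, and SMAD9 averaged 0.203 and 0.116 TPM. SMAD2 made 62.1% and 58.3% of SMAD2 and SMAD3. Of the inhibitory SMADs nearly all was SMAD7, 93.9% and 96.3%, since SMAD6 stayed under 1 TPM. ID2 made 70% and 68.3% of the summed ID proteins, and FST, the activin-binding protein follistatin, 88.3% and 84.0% of the antagonists. Among type I receptors TGFBR1, ACVR1B and BMPR1A each held between 28.2% and 29.5%, and BMPR1B, another BMP receptor, had 1.27% and 0.984%.

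The comparison asked whether these genes differed with Siglec-XII. Of the 43 members 33 reached 1 TPM in at least 4 samples and were tested. The 10 below that were INHBA, INHBB, NODAL, BMPR1B, LTBP2, GREM1, SMAD9, SMAD6, ID3 and ID4. Across all 15590 tested entries 101 (0.648%) had a limma adjusted p under 0.05, and of the 33 members 0 did. The lowest adjusted p among members was 0.114, for SMAD7. At an unadjusted p of 0.05 or less there were 9 members, all higher with Siglec-XII (SMAD7, SKI, SMAD5, ACVR1B, TGFBR3, ACVR2B, BMP4, TGFBR2 and BMPR1A), where 13.9% of all entries passed this limit as higher and 2.61% as lower. After quantile normalization these were 6 higher and 1 lower, and after equalizing upper quartiles also 6 and 1.

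The groups did not overlap for 8 members, each higher with Siglec-XII, against 9.17% of all entries higher and 1.68% lower, or 10.8% in either direction. The mean was higher with Siglec-XII for 28 of the 33 members and lower for 5, where 68.1% of all entries were higher. The median difference of the 33 was 0.15 on the log2 scale, from -0.23 for FST to 0.61 for SMAD7, and the median of all tested entries was 0.07. With quantile normalization the members' median was 0.0857 and that of all entries 0.00954. No member reached a 2-fold change, and 0.603% of all entries did so with an unadjusted p of 0.05 or less.

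**Figure D2:**
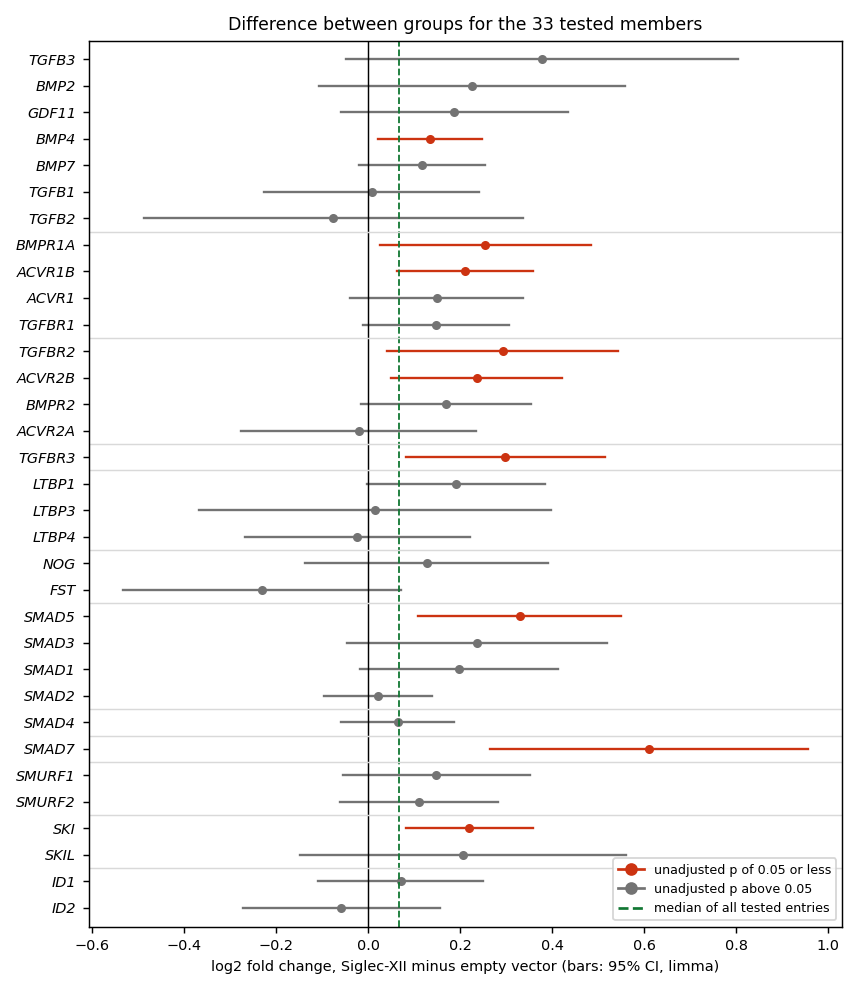
Difference in log2(TPM + 1), Siglec-XII minus empty vector, for the 33 tested members, grouped by role, with 95% confidence intervals from limma. Red marks the 9 members with an unadjusted p of 0.05 or less, and the dashed line is the median of all tested entries, 0.07. SMAD7 lies farthest to the right and FST farthest to the left.

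Among the ligands, BMP4 (minus strand of chromosome 14, 54416454 to 54425479), a BMP of gut and mesoderm development, had log2(TPM + 1) values of 7.22, 7.31, 7.43 and 7.37 in empty vector replicates 1 to 4 and 7.51, 7.45, 7.45 and 7.46 in Siglec-XII replicates 1 to 4. The lowest Siglec-XII sample lay just above the highest empty vector sample, and the spread was wider with the empty vector. Its difference was 0.13 (SE 0.05), or 0.0954 without empty vector replicate 1, with a limma adjusted p of 0.235. BMP7, a kidney and bone BMP, was 7.90, 7.85, 7.99 and 7.99 with the empty vector and 8.01, 8.02, 7.95 and 8.20 with Siglec-XII. Those groups overlapped, and the difference was 0.12 (SE 0.06), or 0.0642 without Siglec-XII replicate 4.

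The other tested ligands overlapped between groups. TGFB1, the main TGF-β here, differed by 0.01 (95% CI -0.23 to 0.24), and its sign turned under the 3 other scalings tried. TGFB3 differed by 0.38 (95% CI -0.05 to 0.80), resting on levels near 1 TPM, and by 0.205 without empty vector replicate 2. BMP2 differed by 0.23 (95% CI -0.11 to 0.56), or 0.149 without empty vector replicate 1, and GDF11, an activin-like ligand, by 0.19 (95% CI -0.06 to 0.43), or 0.107 without empty vector replicate 4. TGFB2 differed by -0.08 (95% CI -0.49 to 0.34).

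All 4 tested type I receptors had higher means with Siglec-XII, BMPR1B, not tested, had 1.01 and 0.888 TPM, and the sum of the 5 was 78.4 ± 6.67 TPM with the empty vector and 89.9 ± 3.38 TPM with Siglec-XII. ACVR1B, the activin type I receptor (plus strand of chromosome 12, 52345483 to 52390862), was 4.48, 4.71, 4.56 and 4.52 with the empty vector and 4.83, 4.69, 4.80 and 4.80 with Siglec-XII. The lowest Siglec-XII sample fell just under the highest control. BMPR1A, the main BMP type I receptor (plus strand of chromosome 10, 88516353 to 88692582), was 4.31, 4.74, 4.40 and 4.65 with the empty vector and 4.85, 4.65, 4.87 and 4.74 with Siglec-XII, and again the groups met in the middle. TGFBR1, the TGF-β type I receptor (plus strand of chromosome 9, 101866320 to 101916474), was 4.39, 4.61, 4.58 and 4.70 with the empty vector and 4.71, 4.71, 4.71 and 4.74 with Siglec-XII. These groups did not overlap, by a narrow gap. The limma adjusted p was 0.173 for ACVR1B (difference 0.21, SE 0.07), 0.263 for BMPR1A (0.25, SE 0.10) and 0.339 for TGFBR1 (0.15, SE 0.07). Without empty vector replicate 1, its lowest sample, TGFBR1 differed by 0.0859. ACVR1, a type I receptor for several BMPs, differed by 0.15 (95% CI -0.04 to 0.34).

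Type II receptors were scarcer, summing to 22.4 ± 0.285 TPM with the empty vector and 25.5 ± 1.69 TPM with Siglec-XII, and 3 of the 4 did not overlap between groups, where 9.17% of all entries were higher in this way, and none was called. TGFBR2, the receptor that binds TGF-β first (plus strand of chromosome 3, 30648093 to 30735634), was 2.35, 2.41, 2.06 and 2.08 with the empty vector and 2.48, 2.47, 2.57 and 2.55 with Siglec-XII. The control samples spread widely and the Siglec-XII samples sat closely together above them. ACVR2B, an activin receptor (plus strand of chromosome 3, 38495381 to 38534633), was 2.59, 2.62, 2.60 and 2.57 with the empty vector and 2.95, 2.76, 2.76 and 2.84 with Siglec-XII. Here the controls were tight and the groups lay clearly apart. BMPR2, the BMP type II receptor (plus strand of chromosome 2, 203241050 to 203432474), was 3.14, 3.23, 3.10 and 3.22 with the empty vector and 3.49, 3.24, 3.28 and 3.36 with Siglec-XII, with Siglec-XII replicate 1 the highest and no overlap. Adjusted p from limma was 0.239 for TGFBR2 (difference 0.29, SE 0.11), 0.216 for ACVR2B (0.24, SE 0.08) and 0.341 for BMPR2 (0.17, SE 0.08). ACVR2A, the paralog of ACVR2B, differed by -0.02 (95% CI -0.28 to 0.23) and its groups overlapped.

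The co-receptor TGFBR3 (betaglycan, minus strand of chromosome 1, 92145900 to 92371892), which presents TGF-β to its receptors, was 4.77, 4.99, 4.53 and 4.66 with the empty vector and 4.93, 4.99, 5.11 and 5.11 with Siglec-XII. The highest control sat among the Siglec-XII samples, and the difference was 0.30 (SE 0.10, limma adjusted p 0.189). LTBP1, which anchors latent TGF-β in the matrix and led its family, was 4.77, 4.94, 4.86 and 4.92 with the empty vector and 4.87, 5.18, 4.97 and 5.23 with Siglec-XII. Its groups overlapped, with a difference of 0.19 (95% CI -0.00 to 0.38). LTBP3 and LTBP4 differed by 0.01 (95% CI -0.37 to 0.40) and -0.02 (95% CI -0.27 to 0.22), and each changed sign without some samples. Of the secreted antagonists, FST was 3.47, 3.93, 3.92 and 3.88 with the empty vector and 3.64, 3.61, 3.27 and 3.75 with Siglec-XII. All Siglec-XII samples lay below 3 of the controls, and 3 of them above empty vector replicate 1, and the difference was -0.23 (95% CI -0.53 to 0.07), or -0.132 without Siglec-XII replicate 3. The BMP antagonist NOG differed by 0.13 (95% CI -0.14 to 0.39), or 0.0779 without empty vector replicate 4.

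**Figure D3:**
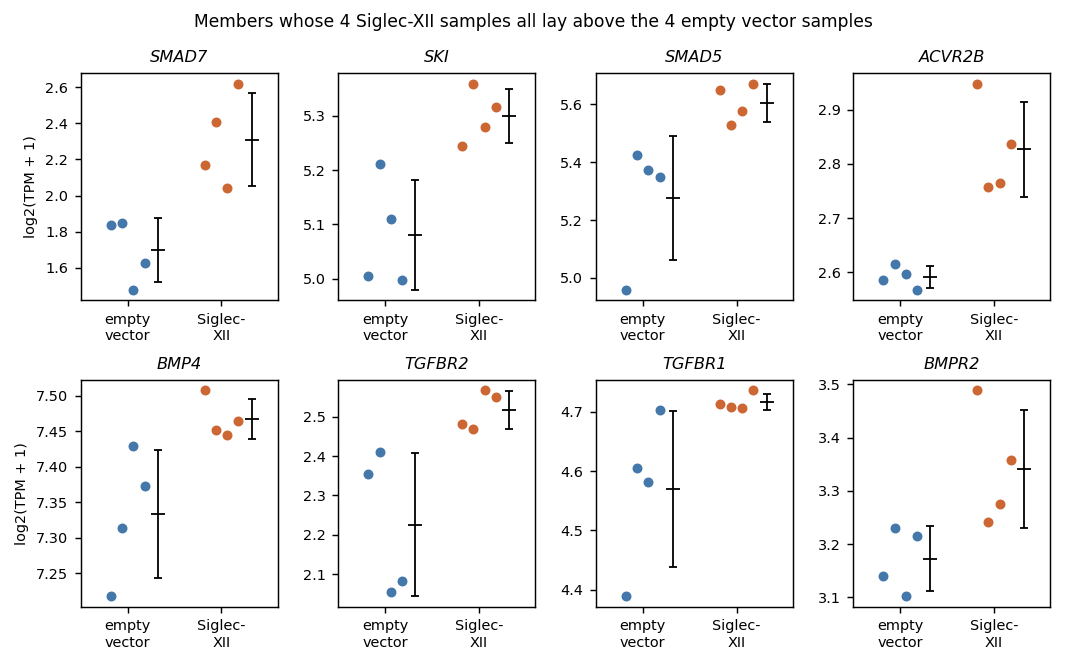
log2(TPM + 1) in each sample for the 8 members whose 4 Siglec-XII samples all lay above the 4 empty vector samples. Points are samples, and the horizontal tick with bars is the group mean ± SD. Each panel has its own y axis, which does not start at 0, and SMAD7 spans the widest range.

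Among the signal-carrying SMADs, SMAD5, which relays BMP signals (plus strand of chromosome 5, 135468534 to 135524435), was 4.96, 5.43, 5.37 and 5.35 with the empty vector and 5.65, 5.53, 5.58 and 5.67 with Siglec-XII. The groups did not overlap, and empty vector replicate 1 lay far below the other controls. The difference was 0.33 (SE 0.10, limma adjusted p 0.159), and 0.223 without that replicate. In TPM the BMP SMADs summed to 45.6 ± 5.50 in the controls and 56.4 ± 2.16 with Siglec-XII. SMAD1 differed by 0.20 (95% CI -0.02 to 0.41), or 0.129 without Siglec-XII replicate 3. SMAD3 differed by 0.24 (95% CI -0.05 to 0.52), with Siglec-XII replicate 1 at 5.17 and all other samples of either group from 4.40 to 4.79. Without that replicate the difference was 0.120. SMAD2 differed by 0.02 (95% CI -0.10 to 0.14) and turned negative under some scalings. SMAD4, the partner of all these and the third most abundant member, was 5.53, 5.46, 5.47 and 5.61 with the empty vector and 5.66, 5.60, 5.54 and 5.52 with Siglec-XII. Its groups overlapped, with a difference of 0.06 (95% CI -0.06 to 0.19).

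The inhibitors of the pathway held the tested member with the largest difference. SMAD7, which competes with SMAD2 and SMAD3 at the receptor and brings ubiquitin ligases to it (minus strand of chromosome 18, 46446223 to 46477335), was 1.84, 1.85, 1.48 and 1.63 with the empty vector and 2.17, 2.41, 2.04 and 2.62 with Siglec-XII. All Siglec-XII samples were higher than all controls, and the Siglec-XII samples spread more. In TPM it was 2.26 ± 0.392 (SD, n = 4) and 4.02 ± 0.900. On the log2(TPM + 1) scale, which understates the change of a low gene, the difference was 0.61 (SE 0.15, 95% CI 0.27 to 0.96) with a limma adjusted p of 0.114, and 0.0996 to 0.276 over 18 alternatives. SMAD6 could not be tested, at 0.153 ± 0.0965 and 0.148 ± 0.0346 TPM.

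SKI, a co-repressor that holds SMAD target genes down (plus strand of chromosome 1, 2158827 to 2241652), was 5.0, 5.21, 5.11 and 5.0 with the empty vector and 5.25, 5.36, 5.28 and 5.32 with Siglec-XII. The groups did not overlap, and the difference was 0.22 (SE 0.06, limma adjusted p 0.144). Its relative SKIL had a difference of 0.21 (95% CI -0.15 to 0.56), with empty vector replicate 3, at 3.01, above every Siglec-XII sample, and a difference of 0.367 without that replicate and 0.117 without empty vector replicate 1. The ubiquitin ligases SMURF2 and SMURF1, which mark SMADs and receptors for destruction, differed by 0.11 (95% CI -0.06 to 0.28) and 0.15 (95% CI -0.06 to 0.35), or 0.0718 and 0.0918 without Siglec-XII replicate 1. SMURF2 was 4.31, 4.40, 4.24 and 4.51 with the empty vector and 4.59, 4.44, 4.49 and 4.38 with Siglec-XII, with overlap.

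The ID proteins, inhibitors of basic helix-loop-helix factors and direct BMP targets, did not separate by group. ID2 was 4.70, 4.65, 4.88 and 4.97 with the empty vector and 4.75, 4.54, 4.89 and 4.78 with Siglec-XII. ID1 was 3.49, 3.41, 3.29 and 3.23 with the empty vector and 3.39, 3.40, 3.47 and 3.44 with Siglec-XII. In both the samples of the groups lay among each other. The differences were -0.06 (95% CI -0.27 to 0.16) for ID2 and 0.07 (95% CI -0.11 to 0.25) for ID1, and each turned sign under 1 alternative. ID4 was too low to test. ID3 was below the limit on each of its 2 identical entries but stood at 1.68 to 2.37 TPM with both summed, where it differed by 0.03 (95% CI -0.26 to 0.32). With such entries summed the 4 ID genes came to 38.4 ± 1.94 TPM with the empty vector and 37.7 ± 2.73 TPM with Siglec-XII.

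To see the rest of the pathway, 119 other genes in 6 lists were read in the same fit. All were in the table and 74 were tested. At a limma adjusted p under 0.05 there were 6 higher and 1 lower with Siglec-XII, where the background was 0.34% higher and 0.308% lower. The lists were chosen with earlier results of these data known. Their counts beside the background are therefore a description and no test of enrichment. Their median difference was 0.10, with 60 higher means and 14 lower, against a median of 0.07 and 68.1% higher means over all tested entries. By list, 2 of 5 tested other receptors and co-receptors, 4 of 19 TGF-β and activin target genes and 1 of 8 BMP target genes were called, and 0 of 5 other ligands, 16 extracellular regulators and 21 intracellular regulators. At an unadjusted p of 0.05 or less these last 3 lists had 1, 1 and 4 genes, all higher, where 13.9% of all entries passed as higher and 2.61% as lower.

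BAMBI, a pseudoreceptor without a kinase that dampens TGF-β and BMP signals (plus strand of chromosome 10, 28966439 to 28971861), rose. It was 4.96, 5.14, 5.04 and 4.89 with the empty vector and 5.44, 5.48, 5.47 and 5.47 with Siglec-XII. The Siglec-XII samples were nearly equal and all well above the controls. In TPM it went from 31.2 ± 2.39 (SD, n = 4) to 43.3 ± 0.505, a difference of 0.46 on the log2 scale (SE 0.06, limma adjusted p 0.00898). BAMBI was called under all 19 alternatives, with an adjusted p of 0.00551 to 0.043. RGMA, a BMP co-receptor (minus strand of chromosome 15, 93578501 to 93632440), rose as well. It was 2.71, 2.30, 2.62 and 2.57 with the empty vector and 3.17, 3.16, 3.21 and 3.29 with Siglec-XII, without overlap, a difference of 0.66 (SE 0.10, limma adjusted p 0.0244).

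**Figure D4:**
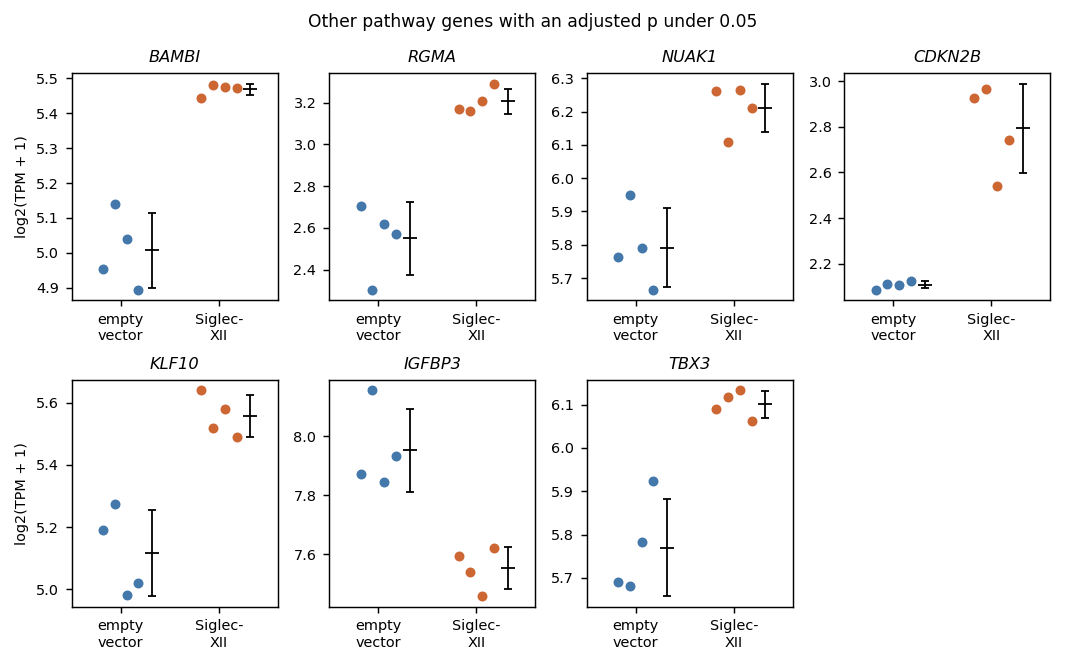
log2(TPM + 1) in each sample for the 7 other pathway genes with a limma adjusted p under 0.05. Points are samples, ticks with bars the group mean ± SD, and each panel has its own y axis, which does not start at 0. In 6 panels all Siglec-XII samples lie above the controls, and for IGFBP3 all lie below.

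Of the TGF-β target genes 3 rose and 1 fell. CDKN2B, the cell cycle inhibitor p15 that TGF-β induces (minus strand of chromosome 9, 22002902 to 22009304), was 2.09, 2.11, 2.11 and 2.13 with the empty vector and 2.93, 2.97, 2.54 and 2.74 with Siglec-XII. The controls were almost identical and the Siglec-XII samples all higher, from 3.31 ± 0.0461 TPM to 5.98 ± 0.918 TPM (difference 0.68, SE 0.11, limma adjusted p 0.0315). KLF10, the TGF-β-inducible early gene (minus strand of chromosome 8, 103661012 to 103667953), was 5.19, 5.27, 4.98 and 5.02 with the empty vector and 5.64, 5.52, 5.58 and 5.49 with Siglec-XII, all above the controls (difference 0.44, SE 0.07, limma adjusted p 0.0365). NUAK1, a kinase (minus strand of chromosome 12, 106457123 to 106532732), was 5.76, 5.95, 5.79 and 5.67 with the empty vector and 6.26, 6.11, 6.26 and 6.21 with Siglec-XII, again with no overlap (difference 0.42, SE 0.07, limma adjusted p 0.0281).

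IGFBP3, a secreted binder of insulin-like growth factors (minus strand of chromosome 7, 45951844 to 45961473), fell. It was 7.87, 8.16, 7.85 and 7.93 with the empty vector and 7.59, 7.54, 7.46 and 7.62 with Siglec-XII. Every Siglec-XII sample was below every control, from 248 ± 25.2 TPM to 187 ± 9.28 TPM (difference -0.40, SE 0.07, limma adjusted p 0.0466). The direction of this list was thus not uniform. TBX3, a transcription factor and BMP target (minus strand of chromosome 12, 115108060 to 115121980), was 5.69, 5.68, 5.78 and 5.92 with the empty vector and 6.09, 6.12, 6.13 and 6.06 with Siglec-XII. Its groups did not overlap (difference 0.33, SE 0.06, limma adjusted p 0.0498, just under the limit).

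**Figure D5:**
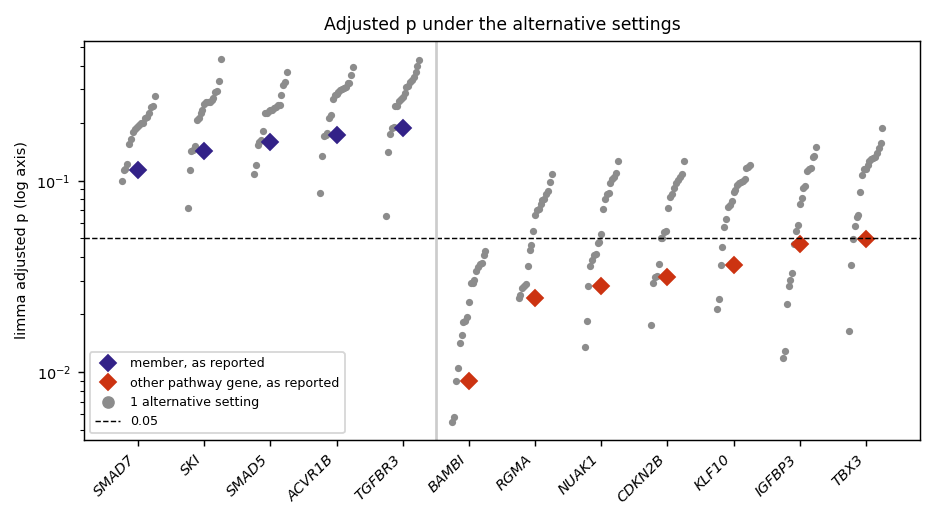
limma adjusted p (log axis) as reported (diamonds) and under each alternative setting (grey points, sorted from low to high) for the 5 members with the lowest adjusted p and the 7 called pathway genes. The dashed line is 0.05. No point of a member lies under the line, and only for BAMBI do all.

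The calls of the other genes depended on which samples were in the fit. Leaving out empty vector replicate 2 left 5 of the 7 calls, and leaving out any other single sample left 1 or 2. Over all entries the 101 calls became 159 without empty vector replicate 2 and 49 to 64 without any other single sample. The differences themselves kept their sign. With 1 sample left out they were 0.576 to 0.710 for RGMA, 0.627 to 0.769 for CDKN2B and 0.396 to 0.493 for KLF10. They were 0.377 to 0.472 for NUAK1, 0.301 to 0.382 for TBX3 and -0.436 to -0.332 for IGFBP3. The split of 6 higher and 1 lower became 3 and 1 after quantile normalization, 2 and 1 with equal upper quartiles, and 3 and 1 without the mitochondrial genes and the 100 most abundant entries.

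Other genes of the 6 lists gave values short of the limit. ITGB6, the integrin chain that with ITGAV activates latent TGF-β, was 1.12, 1.40, 1.18 and 1.29 with the empty vector and 2.38, 1.74, 1.74 and 1.82 with Siglec-XII (difference 0.68, limma adjusted p 0.111). The groups did not overlap and Siglec-XII replicate 1 stood apart at the top. GDF6, a BMP-like ligand, differed by 0.19, ZFYVE9, an anchor for SMAD2 and SMAD3 at endosomes, by 0.20, CREBBP, a SMAD coactivator, by 0.24, and USP9X, which removes ubiquitin from SMAD4, by 0.18, with limma adjusted p from 0.172 to 0.233. The most abundant genes of their lists showed smaller differences: ITGAV 0.14 (95% CI -0.08 to 0.36), STRAP, a SMAD7 partner, 0.02 (95% CI -0.08 to 0.12), TAGLN, a TGF-β target of the cytoskeleton, -0.15 (95% CI -0.39 to 0.10), and MSX1, a BMP target, 0.08 (95% CI -0.01 to 0.17).

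Of the 6 marker lists, those of epithelium and colon epithelium were higher with Siglec-XII in their sum. The 5 epithelial markers summed to 8257 to 9230 TPM with the empty vector and 9841 to 10217 TPM with Siglec-XII, without overlap, and 4 of them were higher at an unadjusted p of 0.05 or less, where 13.9% of all entries were. CDX1 and CDX2 were higher at that limit as well, though the groups overlapped for each. They alone of the colon list passed the filter, and the list summed to 163 to 187 and 191 to 216 TPM, also without overlap. Of all single entries 9.17% were higher without overlap, and no such share was taken for sums. The trophoblast list summed to 1031 to 1160 and 1069 to 1120 TPM, the fibroblast list to 70.8 to 87.0 and 83.3 to 89.2 TPM, the endothelial list to 5.30 to 11.6 and 6.39 to 7.20 TPM and the leukocyte list to 1.83 to 3.06 and 1.56 to 3.20 TPM, each with overlap. At an unadjusted p of 0.05 or less, 1 of 10 tested trophoblast markers was higher, GATA2, by 0.19 without overlap (limma adjusted p 0.103). Of 5 tested fibroblast markers 1 was higher at that limit, COL1A1, by 0.26 with overlap (limma adjusted p 0.149). No tested trophoblast, fibroblast, endothelial or leukocyte marker was lower at it. No marker of the 6 lists had an adjusted p under 0.05 by limma, and the part of the markers in the differences above was not tested. In bulk RNA, fewer cells of a type and less RNA per cell cannot be told apart.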

How the data were processed

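RNA-seq of 4 empty vector and 4 Siglec-XII samples of Caco-2 cells was used, grouped by the sample titles. Per the labels the libraries were stranded, made from total RNA and read as 100 bp pairs to about 25000000 to 40000000 reads each, while the methods name a poly(A) kit. The authors quantified the reads with kallisto (version 0.45.0 in the submitters' processing notes) against hg19 and deposited log2(TPM + 1) values per gene entry, which sum to 1000000 TPM per sample, so read counts and counting errors are unknown. The values were used as deposited. TPM values are relative to the rest of each sample's RNA.

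The test between groups was limma (version 3.58.1, R 4.3.3), with lmFit and eBayes with a trend, two-sided, over the 15590 entries with at least 1 TPM in at least 4 samples, with Benjamini-Hochberg adjustment over all of them. The study's DESeq2 test needs counts and was not used. Where a symbol stood on more than 1 entry, the entry with the highest mean was taken, and family sums add the entries. The fit was also run on simulated data with independent samples and 200 changed genes. That simulation holds no technical replicates and no shift shared by most entries, so it says nothing about either. SIGLEC12 was compared by an exact permutation test. GRCh37 positions came from the GENCODE annotation lifted to that build.

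The members, the gene lists and the tests were chosen with earlier results of these data known. Values per sample are given for members without overlap or with an unadjusted p of 0.05 or less and for the most abundant member of each role. Abundance was taken here per entry. Among the ubiquitin ligases this chose SMURF2, with a mean of 20.4 TPM, though SMURF1 had 21.7 TPM with its 2 entries summed. Of the 6 other pathway lists, genes with an adjusted p under 0.05 are named, otherwise up to 3 in each direction with the smallest unadjusted p of 0.05 or less, and the most abundant gene. Plots were made in Python 3.11.15 with matplotlib 3.10.9. Results were recomputed with quantile normalization, with equal upper quartiles, with a pseudocount of 0.1, with no filter, with a filter of 5 TPM on the mean, with mitochondrial genes and the 100 most abundant entries left out, small structured RNAs left out, a replicate block, eBayes without the trend, each sample left out, duplicate entries summed and a length trend removed, the last 2 chosen after seeing the data.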

Additional observations from a re-analysis of the deposited data

Results flagged for a closer look

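In 100 groups of 4 samples, each 1 named gene in 1 condition, the highest or lowest sample was compared with the rest of its group by Dixon's ratio, and 7 exceeded the 95% critical value for 4 samples. Chance gives about 1 in 20 groups, so 7 of 100 is close to that share. All values are log2(TPM + 1).

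SMAD5 was 4.96 in empty vector replicate 1, against 5.35 to 5.43 in the other controls, and SMAD1 was 3.45 in Siglec-XII replicate 3, against 3.16 to 3.21 in the rest of that group. TGFB1 was lowest in Siglec-XII replicate 3 at 3.37, against 3.55 to 3.56. FST was 3.47 in empty vector replicate 1, against 3.88 to 3.93, and NOG was 1.27 in empty vector replicate 4, against 1.45 to 1.48. Among the other pathway genes, ITGB6 was 2.38 in Siglec-XII replicate 1, against 1.74 to 1.82, and ZFYVE9 was 4.02 in Siglec-XII replicate 2, against 4.13 to 4.15. Empty vector replicate 1 gave 2 of the 7 values and Siglec-XII replicate 3 gave 2.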

How the results depend on the processing

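The count of members with an adjusted p under 0.05 was 0 under every alternative. Of the 33 tested members 24 kept the sign of their difference under all alternatives and 9 did not. SIGLEC12 kept a log2 difference of 10.54 to 13.20. Members at an unadjusted p of 0.05 or less numbered 7 to 10 with 1 sample left out and 4 with the length trend removed. The members' median of 0.15 became 0.0857 with quantile normalization, 0.0920 with equal upper quartiles and 0.0716 with the length trend removed, and was 0.118 to 0.172 with 1 sample left out. The 7 called genes of the other lists became 4 with quantile normalization, 3 with equal upper quartiles, 4 without mitochondrial and the 100 most abundant entries, 3 without small structured RNAs, 3 without the trend in eBayes, 1 with no filter, 2 with the length trend removed and 1 to 5 with 1 sample left out.

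Signs turned for TGFB1 (-0.0612 quantile, -0.0492 upper quartiles, -0.0329 abundant entries out, -0.0386 length, -0.0527 to 0.0819 with 1 sample left out), LTBP3 (-0.0502, -0.0440, -0.0277 and -0.0727, and -0.115 to 0.196), SMAD2 (-0.0440, -0.0395, -0.0213 and -0.108, and -0.00491 to 0.0466) and STRAP (-0.00245, -0.0417, -0.0230 and -0.0315, and -0.00175 to 0.0442). SMAD4 became -0.0503 with the length trend removed and ID1 -0.00396 with quantile normalization. With 1 sample left out TGFB2 ran from -0.215 to 0.0298, ACVR2A from -0.0879 to 0.0514, LTBP4 from -0.134 to 0.0478 and ID2 from -0.109 to 0.00741. The cause was not tested. The length trend used the transcript named in each entry, which is not always a main one.

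The replicate numbers did not pair the samples: deviations of same-numbered samples correlated at 0.040, 0.0282, -0.0742 and 0.0591, and only numbers 2 and 4 correlated best with their own number. A replicate block gave 7 members at an unadjusted p of 0.05 or less and 1 called gene of the other lists, BAMBI. Summing duplicate entries added ID3 to the tested members. Depth is unknown.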
